A study of Rattus norvegicus with 16 samples.

Results

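The 9 membrane-bound adenylyl cyclases, Adcy1 to Adcy9, were followed in the rat hippocampus 24 h after traumatic brain injury (TBI). They were chosen by gene name: every non-control probe carrying a member's symbol was taken, which gave 10 probes for the 9 genes among 30367 probes on the array, with 2 probes for Adcy7 and 1 for each of the others. The family itself was selected on the TBI vs Sham contrast of these arrays, in which Adcy1 had been among the largest falls. For that reason the members' values in TBI vs Sham are a description with no test, and Adcy1 was not tested in any comparison that uses the TBI or Sham arrays.

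Hippocampi of 16 Sprague-Dawley rats were profiled on single-colour arrays, 1 rat per array. Naive rats (n = 3) were neither anaesthetized nor handled, Sham rats (n = 2) were prepared without an impact, and TBI rats (n = 3) received a severe fluid percussion, a pressure pulse of fluid onto the exposed dura. The remaining groups were injured and given a drug: TBI+PMI (n = 3) and TBI+JM6 (n = 3), the latter an inhibitor of kynurenine monooxygenase, by oral gavage, and TBI+E33 (n = 2), an estrogen, given under the skin according to the labels and into the peritoneum according to the methods. No genetic change is named for any group, and the TBI group had no drug. The design names 3 biological replicates in every group, and 2 arrays each of Sham and TBI+E33 were analysed here.

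The Naive, Sham and TBI arrays were scanned in 1 session and the drug arrays in another, so drug and session cannot be told apart in any comparison of a drug group with TBI. Slide 1 held both Sham arrays with Naive replicates 1 and 2, and slide 2 held all TBI arrays with Naive replicate 3, so no slide held both Sham and TBI. Slide 3 held the TBI+PMI arrays and TBI+JM6 replicate 1, and slide 4 the other TBI+JM6 arrays and both of TBI+E33. Between 16282 and 18245 probes were well above background on the 8 arrays of the first session, against 20259 to 24984 on the 8 arrays of the second. Among neuronal markers, all 5 on the array were well above background on every array. In whole tissue, fewer cells of a type and less RNA per cell cannot be told apart.

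Adenylyl cyclases make cyclic AMP from ATP, and cyclic AMP acts through protein kinase A, Epac exchange factors and ion channels. Calcium and calmodulin stimulate Adcy1, Adcy8 and, in part, Adcy3, while Adcy5 and Adcy6 are inhibited by calcium. Adcy2, Adcy4 and Adcy7 are further activated by G protein beta-gamma subunits, and Adcy9 is the member least sensitive to forskolin. In the hippocampus Adcy1 and Adcy8 are known for their part in synaptic plasticity and memory.

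The probes are short strands of 60 bases, and what each can report depends on where it lies. The design places the Adcy1 probe at chr14:87923098-87923157 of rn4 on the plus strand, the Adcy3 probe at chr6:27200301-27200360 on the plus strand and the Adcy8 probe at chr7:101957976-101958035 on the minus strand. Each of these has at least 1 reading frame without a stop codon. They are shown because the calcium-stimulated members carry much of the description that follows.
Adcy1: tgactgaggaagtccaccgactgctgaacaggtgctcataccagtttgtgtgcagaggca
Adcy3: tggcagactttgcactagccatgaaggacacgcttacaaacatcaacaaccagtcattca
Adcy8: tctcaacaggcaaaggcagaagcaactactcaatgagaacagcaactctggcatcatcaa

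The Adcy9 probe has no genome position in the design, and its transcript accession was the only one of the 9 genes not found in the RefSeq gene table, which holds the symbol. Its first 30 bases are shown because they hold TTTATT (in capitals), the reverse complement of AATAAA, the usual polyadenylation signal.
Adcy9: atgaagcaacgtggcaTTTATTtttacagc
TTTATT occurs in 2.86% of all probes and AATAAA, which the Adcy9 probe lacks, in 8.39%. Which strand of the transcript this probe reads was not tested, so its values are given as those of the probe named Adcy9.

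Signal is given as scaled log2 signal, that is, log2 of the probe's processed signal over the 75th percentile of the probes well above background on the same array. A value of 0 therefore lies at that percentile, and levels of different probes are not compared. A probe was modelled where some group had it well above background on each of its arrays, which held for 8 of the 10 probes and for 22827 in all. Adcy1 passed through its Sham and drug arrays and the Adcy7 probes through their drug arrays, so these were bound to differ from the dim groups.

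**Figure D1:**
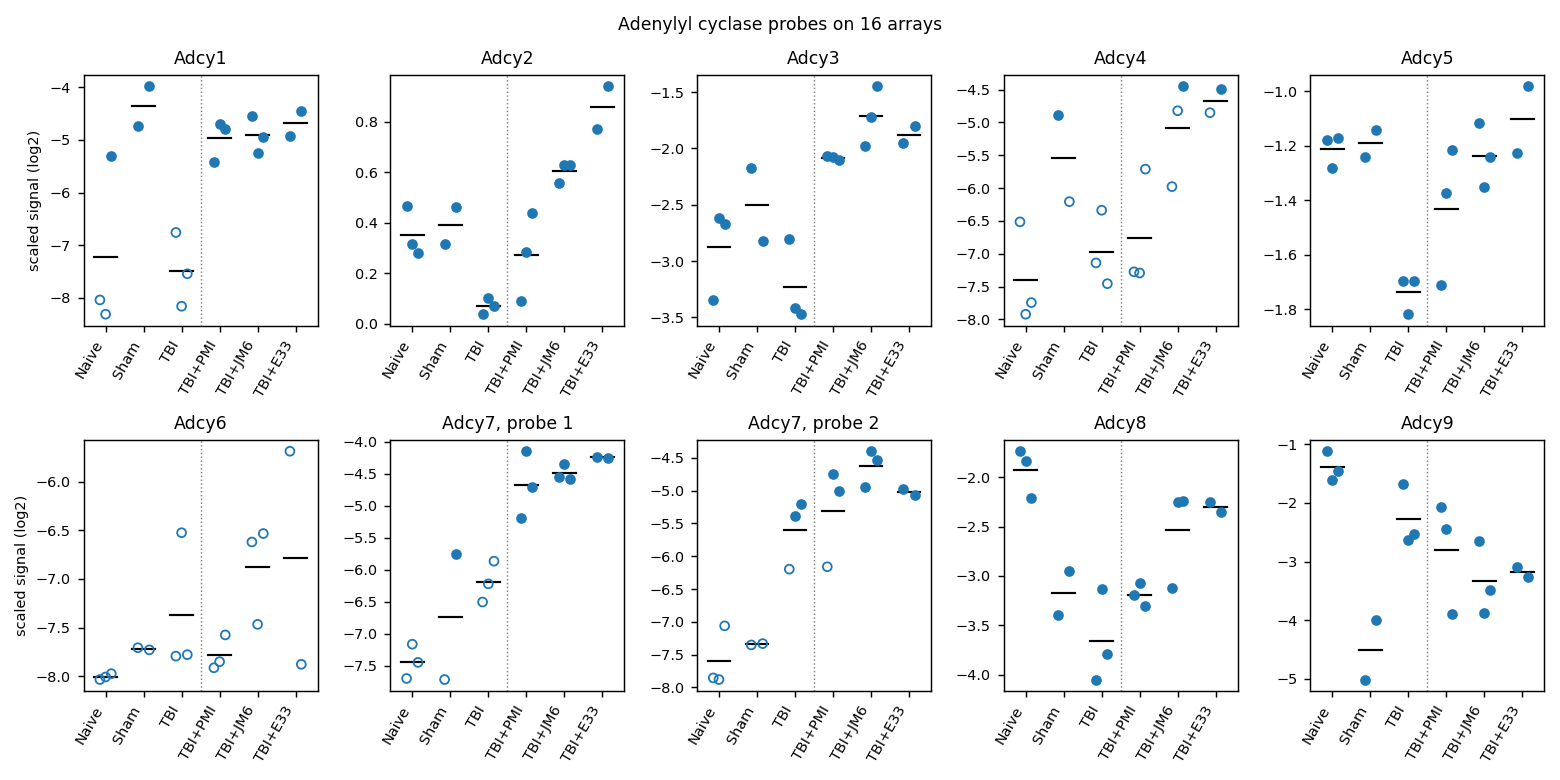
Scaled log2 signal of the 10 adenylyl cyclase probes by group; each point is 1 rat, filled where the probe was well above background, lines are group means, and the dotted line separates the scan sessions. Adcy9 is lowest in Sham (-5.01 and -4.00), Adcy8 is highest in Naive, and Adcy6 has no filled point.

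Adcy1, the calcium-stimulated neuronal cyclase, was well above background in Sham but not in TBI, and its signal was low in every group. Scaled log2 signal was -4.74 and -3.98 in Sham, and -6.76, -8.16 and -7.54 in TBI. In Naive it was -8.04, -8.31 and -5.30, in TBI+PMI -5.42, -4.70 and -4.79, in TBI+JM6 -4.55, -5.24 and -4.94, and in TBI+E33 -4.92 and -4.45. Sham and TBI did not overlap, and within Naive 1 array stood apart from the others: it was well above background on 1 of 3 Naive arrays, on both Sham arrays, on 0 of 3 TBI arrays and on all 8 drug arrays. Because TBI lay below background, the difference is given as a bound on group means. With each TBI array raised to at least its lowest signal well above background, Sham was 3.05-fold higher. Such bounds, written below as at least a fold, are for the scaling and background correction of the methods. They make no allowance for the spread between rats and are no minimum under other processing. The fitted log2 difference of TBI from Sham was -3.13 ± 0.71 (SE), with another background correction (normexp) it was -0.25, and with slide as a fixed block it was -6.01. As no slide held both groups, that last value runs through the Naive arrays. On the slide of the TBI arrays it rests on Naive replicate 3 alone. Naive and TBI overlapped, with a fitted difference of -0.27 ± 0.64, and 2 of the 3 Naive rats were as low as TBI. That difference was -2.19 against the Naive array on the slide of the TBI arrays (replicate 3) and 0.69 without that array. On slide 1, where both Naive arrays lay below background, Sham was at least 3.38-fold higher than Naive. Over all 3 Naive arrays the fitted difference of Sham was 2.86 ± 0.71, and 0.61 with the normexp correction.

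In the order of its group means, Adcy1 ran from Sham through TBI+E33, TBI+JM6 and TBI+PMI to Naive and TBI, and every neighbouring pair in that order overlapped. The 5 named genes whose main probe was most like it over the 16 arrays, of 12163 genes compared, were Zfp382 (Pearson r = 0.89), Kcnip2 (r = 0.86), Pgbd5 (r = 0.84), Ccdc85c (r = 0.84) and Tctex1d4 (r = 0.83). Kcnip2 encodes a calcium-binding partner of Kv4 potassium channels. These correlations share the arrays, their slides and their sessions, and are a description.

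Adcy8, the other strongly calcium-stimulated cyclase, was highest in Naive and lower in both operated groups. Its scaled log2 signal was -1.74, -1.83 and -2.22 in Naive, -3.40 and -2.95 in Sham, and -4.05, -3.13 and -3.79 in TBI. No Sham or TBI array reached the lowest Naive array, while Sham and TBI overlapped each other. The probe has 10 spots per array and was well above background on 16 of 16 arrays. Adcy8 fell by 1.73 ± 0.28 (SE) on the log2 scale in TBI relative to Naive (3.31-fold, limma, adjusted p = 0.00713) and fell by 1.25 ± 0.31 in Sham relative to Naive (2.37-fold, adjusted p = 0.0285). The log2 difference within a slide was -1.44 for TBI against the single Naive array beside it and -1.39 for Sham against 2 Naive arrays. The TBI call was lost with slide as a fixed block (adjusted p = 0.379) and with the compared groups alone (adjusted p = 0.0957), as was the Sham call (adjusted p = 0.189 and 0.0766). Quantile normalization gave -1.65 and -1.30, while the normexp correction gave -1.04 and -1.01, neither called (adjusted p = 0.531 and 0.736). The Sham call was lost without Naive replicate 1 or 2 or either Sham array, where adjusted p ran from 0.0633 to 0.176.

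Adcy3, known as the cyclase of olfactory neurons and primary cilia, did not pass the test against Naive in either group. Its scaled log2 signal was -3.34, -2.62 and -2.67 in Naive, -2.18 and -2.82 in Sham, and -2.81, -3.42 and -3.47 in TBI. These groups overlapped, and the difference from Naive was -0.35 ± 0.25 in TBI (adjusted p = 0.467) and 0.38 ± 0.28 in Sham (adjusted p = 0.474).

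Adcy9 gave the largest tested difference of the family, and it was in Sham. The probe read a scaled log2 signal of -1.12, -1.60 and -1.46 in Naive, -5.01 and -4.00 in Sham, and -1.68, -2.63 and -2.53 in TBI. Sham lay below every other array of that session. The probe was well above background on 16 of 16 arrays. Sham differed from Naive by -3.12 ± 0.52 (8.66-fold lower, adjusted p = 0.00562), and by -3.15 within the slide that held both groups. The adjusted p was 0.0517 without Sham replicate 1, 0.159 with the normexp correction and 0.0989 with slide as a fixed block. TBI differed from Naive by -0.89 ± 0.46 (adjusted p = 0.301), and TBI exceeded Sham by 2.23 ± 0.52, given here as a description.

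Adcy7, the cyclase prominent in blood cells and microglia, was read by a pair of probes that lay near background in the first session. Its 2 probes lie at chr19:20052391-20052450 (probe 1) and chr19:20051639-20051698 (probe 2) of rn4 on the minus strand. Probe 2 read -7.86, -7.88 and -7.06 in Naive, -7.35 and -7.33 in Sham, and -6.20, -5.38 and -5.20 in TBI, all as scaled log2 signal. TBI lay above Naive and Sham without overlap, although only 2 of 3 TBI arrays and none of the Naive or Sham arrays were well above background. TBI was therefore at least 1.37-fold higher than Naive, with a fitted log2 difference of 2.01 ± 0.36 (adjusted p = 0.0121). The call was lost with slide as a fixed block (1.47, adjusted p = 0.37) and with the compared groups alone (adjusted p = 0.106). Without Naive replicate 1 or TBI replicate 3 the adjusted p was 0.0523 and 0.0547, and with the normexp correction the difference was 0.95 (adjusted p = 0.805). Probe 1 read -7.70, -7.17 and -7.45 in Naive, -7.72 and -5.75 in Sham, and -6.51, -6.22 and -5.87 in TBI. Sham replicate 2 lay above every TBI array and was the only array of these groups well above background. Relative to Sham, TBI differed by 0.54 in the fit and by -0.44 without Sham replicate 1. The fitted difference of TBI from Naive was 1.24 ± 0.40 (adjusted p = 0.0986), and no fold is given since both groups lay below background.

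Leukocyte markers moved in the same comparison. The summed scaled signal of the 6 leukocyte markers was 0.684 to 0.954 in Naive, 1.22 to 1.64 in Sham and 1.64 to 7.48 in TBI, and 4 of the 5 tested were called higher in TBI than in Naive. The 6 microglial markers summed to 4.88 to 5.32 in Naive and 6.84 to 9.19 in TBI, with 1 of 6 called. In the same arrays the 5 dentate granule cell markers summed to 1.77 to 2.38 in Naive, 2.40 to 2.55 in Sham and 0.559 to 1.08 in TBI. For markers of neighbouring regions relative to Naive, the median log2 difference of the 4 tested thalamus markers was -0.88 in TBI and -1.16 in Sham, with 1 called lower in each, and that of the 5 striatum markers was -0.79 and -0.53, with 1 and 0 called lower. The summed thalamus signal ran from 0.375 to 1.76 in Naive, 0.334 to 0.360 in Sham and 0.262 to 0.371 in TBI. Of the 4 tested choroid plexus markers none was called, with medians of -1.08 in TBI and 2.05 in Sham. The 7 choroid plexus markers summed to 2.35 to 76.8 in Naive, 4.91 to 122 in Sham and 0.198 to 3.54 in TBI. Of these 7, 5 were well above background on no TBI array. Among 6 astrocyte markers 1 was called higher and 1 lower in TBI and 1 higher in Sham, and among 5 CA pyramidal markers 0 were called in TBI and 1 higher in Sham. The 4 tested dentate markers had 1 called lower in TBI and 0 in Sham, and the 5 neuronal markers 0 called in TBI and 1 higher in Sham. Leukocyte and microglial markers each had 1 called higher in Sham. None of the 6 endothelial or 6 oligodendrocyte markers was called in either comparison. The part of these cell types and regions in the Adcy7, Adcy8, Adcy9 and Adcy1 values was not tested.

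Adcy2 and Adcy5 were well above background on all 16 arrays and varied little. Adcy2 ran from 0.28 to 0.47 in Naive, 0.32 to 0.46 in Sham and 0.04 to 0.10 in TBI, so that TBI was the lowest of these 3 groups without overlap. The log2 difference of TBI from Naive was -0.28 ± 0.14 (adjusted p = 0.257). Adcy5, inhibited by calcium and best known from striatum and heart, ran from -1.28 to -1.17 in Naive, -1.24 to -1.14 in Sham and -1.82 to -1.70 in TBI. TBI was again the lowest of the 3 without overlap, although TBI+PMI overlapped TBI for both genes, with a log2 difference from Naive of -0.53 ± 0.15 (adjusted p = 0.0699). After centring of each array, Adcy2 and Adcy5 had the highest correlation among the member probes over the 16 arrays (r = 0.96), against 0.73 for the 2 Adcy7 probes. In the second session alone it was 0.80, below the 0.88 of Adcy1 with Adcy5.

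Adcy4 and Adcy6 were not tested. The Adcy4 probe was well above background on 3 of 16 arrays, 1 each of Sham, TBI+JM6 and TBI+E33, and its scaled log2 signal ran from -7.92 to -4.44. The Adcy6 probe, of which the design places 25 bases on chromosome 7, was well above background on 0 of 16 arrays.

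In TBI vs Naive, 2 of the 7 tested member probes were called at an adjusted p under 0.05. The higher one was Adcy7 probe 2, where 2.98% of all tested probes were called higher, and the lower one was Adcy8, where 1.73% were called lower. In Sham vs Naive, Adcy8 and Adcy9 were called lower, where 1.52% of all probes were called lower, and no member was called higher, where 6.57% were. In TBI vs Sham, with no test, 5 of the 8 probes were lower in TBI, with a median log2 difference of -0.40 against -0.03 over all tested probes.

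**Figure D2:**
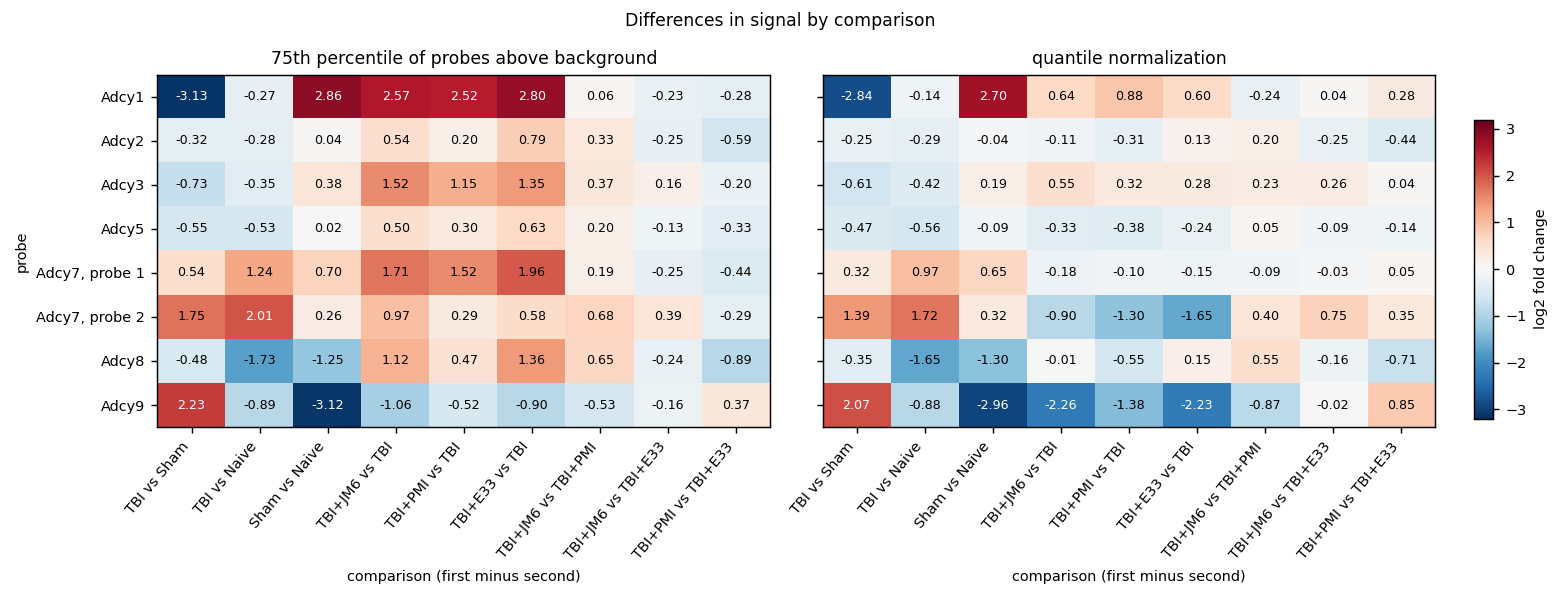
Log2 fold change (first group minus second) of the 8 modelled probes in 9 comparisons, under the scaling of the methods (left) and quantile normalization (right). The 3 comparisons among Naive, Sham and TBI look alike in both, with Adcy9 at -3.12 and -2.96 in Sham vs Naive, whereas the drug vs TBI columns differ.

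The drug groups were set against TBI to ask which members differed after treatment, and here the scaling decided the calls. With the scaling of the methods, TBI+JM6 had 6 of 7 tested member probes called higher, against 69.9% of all probes, and 0 called lower, against 0.175%. TBI+E33 had 5 of 7 called higher, against 70.2%, and 0 lower, against 0.092%. TBI+PMI had 2 of 7 called higher, against 56.7%, and 0 lower, against 0.0482%. These counts include Adcy7 probes that entered the model through the drug arrays. Of the 5 member probes well above background on all 16 arrays, 4 were called higher in TBI+JM6, against 63.6% of such probes, 4 in TBI+E33, against 63%, and 1 in TBI+PMI, against 48.6%. The median log2 difference of all tested probes was 0.99 for TBI+JM6, 1.08 for TBI+E33 and 0.79 for TBI+PMI, so shares of calls this large are the background of these comparisons. The members' medians were 1.04, 1.07 and 0.39.

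Adcy3 rose in all 3 drug groups relative to TBI with the scaling of the methods. It read a scaled log2 signal of -2.07, -2.07 and -2.10 in TBI+PMI, -1.98, -1.72 and -1.44 in TBI+JM6, and -1.95 and -1.80 in TBI+E33, all above every TBI array. The log2 differences were 1.52 ± 0.25 for TBI+JM6 (adjusted p = 0.000224), 1.15 ± 0.25 for TBI+PMI (adjusted p = 0.00208) and 1.35 ± 0.28 for TBI+E33 (adjusted p = 0.00113). Under quantile normalization they were 0.55, 0.32 and 0.28, with adjusted p = 0.0797, 0.316 and 0.429.

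Adcy8 was called higher than TBI in TBI+JM6 (1.12 ± 0.28, adjusted p = 0.0033) and in TBI+E33 (1.36 ± 0.31, adjusted p = 0.00206), while TBI+PMI differed by 0.47 ± 0.28 (adjusted p = 0.16). Its scaled log2 signal was -3.12, -2.26 and -2.24 in TBI+JM6, -2.25 and -2.35 in TBI+E33, and -3.19, -3.07 and -3.30 in TBI+PMI. Quantile normalization gave -0.01, 0.15 and -0.55 for TBI+JM6, TBI+E33 and TBI+PMI, none of them called. The calls of Adcy2 and Adcy5 in TBI+JM6 and TBI+E33, of 0.50 to 0.79 on the log2 scale, lay below the median of all probes.

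Adcy7 probe 1 was well above background on all 8 drug arrays and on no TBI array, which gives bounds of at least 2.73-fold for TBI+JM6, 2.40-fold for TBI+PMI and 3.26-fold for TBI+E33 with the scaling of the methods. Under quantile normalization its log2 differences were -0.18, -0.10 and -0.15, and with the normexp correction 0.77, -0.13 and 0.10, none of them called. The bounds of probe 1 therefore do not hold under that processing. Probe 2 changed direction with the scaling: its log2 difference was 0.97, 0.29 and 0.58 for TBI+JM6, TBI+PMI and TBI+E33, and -0.90, -1.30 and -1.65 under quantile normalization, of which the last 2 were called (adjusted p = 0.0314 and 0.018). Adcy1, untested, was 2.57, 2.52 and 2.80 higher in the fitted log2 values of TBI+JM6, TBI+PMI and TBI+E33, with bounds of at least 2.08-fold, 2.0-fold and 2.43-fold. Those bounds are for the scaling of the methods. Under quantile normalization the fitted differences of Adcy1 were 0.64, 0.88 and 0.60, and no minimum fold could be given for any of them. With the normexp correction they were 0.94, 0.06 and 0.20.

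Adcy9 was the only modelled member probe lower in all 3 drug groups than in TBI under the scaling of the methods, its variant over all probes and quantile normalization. On the scaled log2 scale it read -2.64, -3.87 and -3.49 in TBI+JM6, -3.09 and -3.26 in TBI+E33, and -2.07, -2.44 and -3.89 in TBI+PMI. No TBI+JM6 or TBI+E33 array overlapped TBI, whereas TBI+PMI did. The log2 differences were -1.06 ± 0.46 (adjusted p = 0.0561), -0.90 ± 0.52 (adjusted p = 0.133) and -0.52 ± 0.46 (adjusted p = 0.339), which miss the threshold. Under quantile normalization they were -2.26 (adjusted p = 0.0075), -2.23 (adjusted p = 0.017) and -1.38 (adjusted p = 0.0698). With the percentile over all probes they were -1.85 (adjusted p = 0.00659), -1.73 (adjusted p = 0.0179) and -1.17 (adjusted p = 0.0626). Over the alternative settings the TBI+PMI difference ran from -1.38 to 0.02, so its direction was not kept in all.

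**Figure D3:**
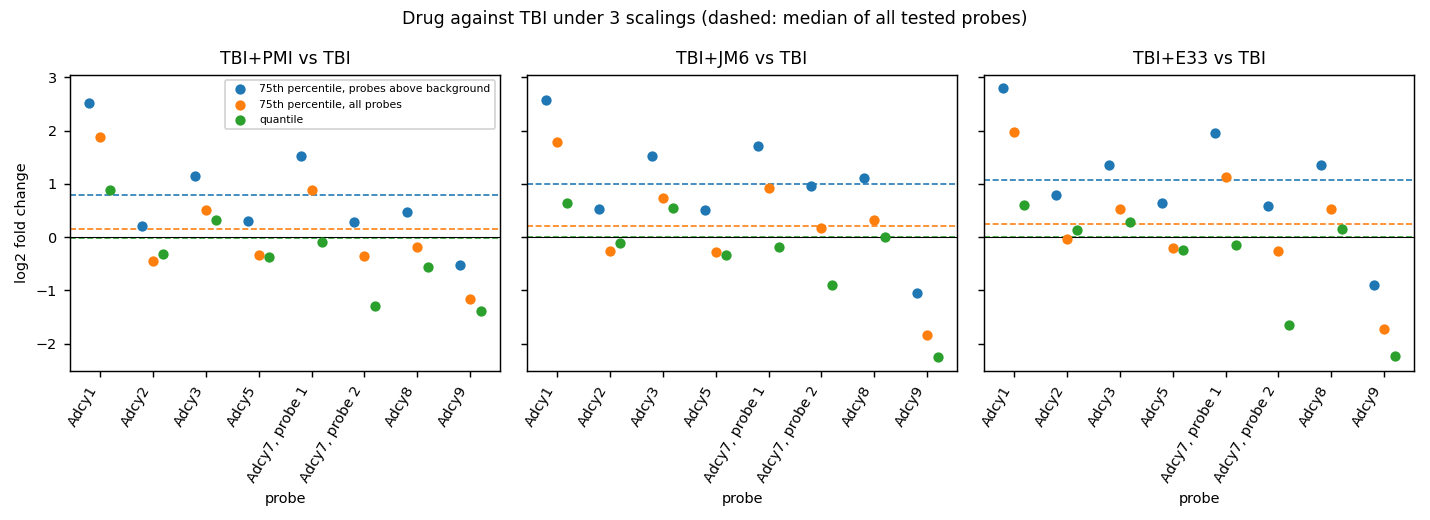
Log2 fold change of each modelled probe in the 3 drug groups relative to TBI under 3 scalings (colours); dashed lines are the median of all tested probes under each. Adcy9 is below 0 in every panel, and Adcy7 probe 2 moves from 0.58 to -1.65 in TBI+E33.

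Between drugs, which shared a scan session, no member probe was called. TBI+JM6 vs TBI+PMI had 0 of 8 called, where 0.0131% of all probes were called. There 2 member probes had an unadjusted p under 0.05, against 8.84% of all probes. TBI+JM6 vs TBI+E33 had 0 of 8, against 0.0175%, with 0 at the unadjusted level, against 2.81%. TBI+PMI vs TBI+E33 had 0 of 8, against 0.11%, with 2 at the unadjusted level, against 15%. In that last comparison Adcy2 differed by -0.59 (95% interval -0.91 to -0.26, adjusted p = 0.134) and Adcy8 by -0.89 (-1.56 to -0.22, adjusted p = 0.207). The median over all tested probes was -0.26. No slide held both TBI+PMI and TBI+E33, so drug and slide cannot be told apart there. For Adcy1 the intervals were wide, from -1.32 to 1.43 in TBI+JM6 vs TBI+PMI on the log2 scale, so differences of either sign between those limits are not excluded.

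Genes that act with the cyclases were taken from a list of 49, of which 46 are on the array and 43 were tested by their brightest probe. In TBI vs Naive, 2 were called higher and 3 lower, where 2.98% and 1.73% of all probes were. Pde10a and Pde1a, phosphodiesterases that degrade cyclic nucleotides, fell by 0.81 ± 0.20 (adjusted p = 0.0395) and fell by 0.75 ± 0.17 (adjusted p = 0.026). Vipr2, a receptor for PACAP and VIP that couples to cyclase, fell by 1.37 ± 0.32 (adjusted p = 0.0329, and 0.083 under quantile normalization). Pde7b, another phosphodiesterase, was well above background on 2 of 3 TBI arrays and 0 of 3 Naive arrays, and its level with injury was at least 1.59-fold higher (adjusted p = 0.0455, and 0.0545 under quantile normalization). It entered the model through the drug arrays. Prkar2a, a regulatory subunit of protein kinase A, was called at 1.47 ± 0.27 (adjusted p = 0.0131) but lay below background on all 6 arrays, so no fold is given.

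In Sham vs Naive, 4 were called higher and 2 lower, where 6.57% and 1.52% of all probes were. Pde10a fell by 1.77 ± 0.23 (adjusted p = 0.0023) and Vipr2 fell by 1.51 ± 0.36 (adjusted p = 0.025, and 0.0728 under quantile normalization). Gnaz, an inhibitory G protein alpha subunit, rose by 1.89 ± 0.33 (adjusted p = 0.00704). Prkacb, a catalytic subunit of protein kinase A, rose by 1.51 ± 0.33 (adjusted p = 0.0171), and Pkia, an inhibitor of that kinase, rose by 1.76 ± 0.35 (adjusted p = 0.0117). Pkia was well above background on both Sham arrays but on only 2 of the Naive arrays. It entered the model through the Sham and drug arrays. Cap1, a cyclase-associated protein that binds actin, rose by 1.12 ± 0.21 (adjusted p = 0.00882). Both comparisons share the Naive arrays, and the part of the thalamus and striatum markers, whose values are given above, in those of Pde10a and Vipr2 was not tested.

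**Figure D4:**
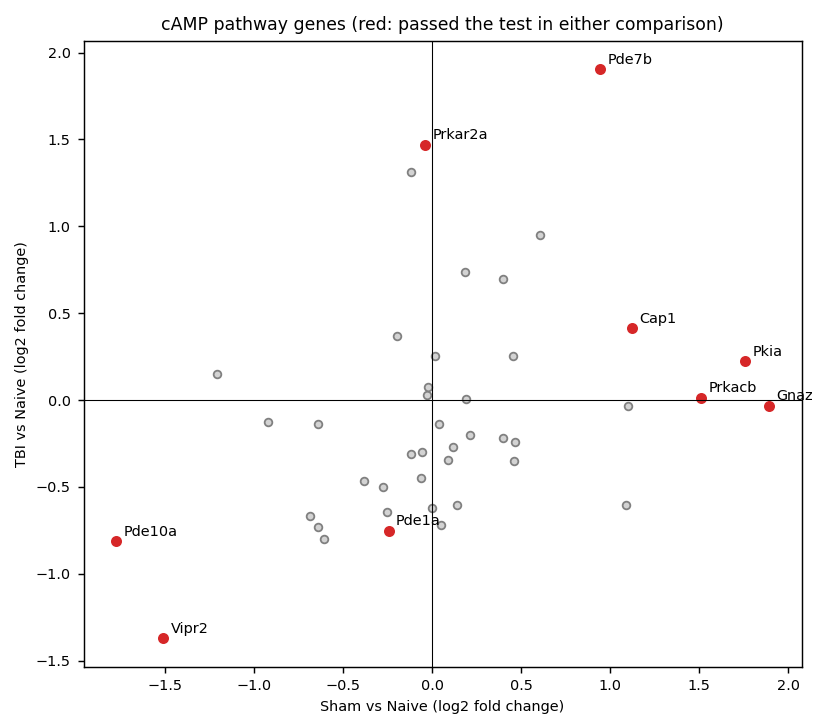
Log2 fold change of the 43 tested cyclic AMP pathway genes in Sham vs Naive (horizontal) and TBI vs Naive (vertical), which share the Naive arrays; red points passed the test in either. Pde10a (-1.77 and -0.81) and Vipr2 (-1.51 and -1.37) are low in both.

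Relative to TBI, 31 of the 43 genes were called higher in TBI+JM6, 26 in TBI+PMI and 30 in TBI+E33, with 0 lower, beside the background shares given above. The 43 include Prkar2a and Pde8b, well above background on 0 of 3 TBI arrays, Pde3a, on 1, and Pde7b, on 2. These entered the model through the drug arrays alone, so the filter favoured a rise over TBI. No count without them is given. Under quantile normalization 10, 7 and 6 were called higher and 4, 3 and 3 lower. Those background shares do not apply to that scaling, and no share over all probes is given for it. Those with the largest changes included Gnaz (3.22 ± 0.30 in TBI+JM6, adjusted p = 4.63e-06) and Prkacb (2.73 ± 0.29 in TBI+JM6, adjusted p = 1.22e-05). Under quantile normalization these were 1.95 and 1.62, and both stayed called. Gnaz was well above background on only 2 of 3 TBI arrays, so its size rests in part on a value below background. Adcyap1r1, the PACAP receptor, was called higher as well, but it was well above background on 1 of 3 TBI arrays and on all 8 drug arrays, through which it entered the model, so its size is not given. No gene of the list was called between drugs, where the unadjusted p was under 0.05 for 2018, 642 and 3421 of all probes in TBI+JM6 vs TBI+PMI, TBI+JM6 vs TBI+E33 and TBI+PMI vs TBI+E33.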

How the data were processed

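The authors hybridized labelled RNA of 16 hippocampi to single-colour Agilent rat arrays. Per the file headers, Agilent Feature Extraction 9.5.3.1 gave each spot's processed intensity, background subtracted and not normalized between arrays. The deposited matrix of the authors holds a ratio to the 75th percentile, made with GeneSpring GX; its columns share 1 distribution (median 0.14 on every array) and it served as an alternative, while its log2 values correlated with the scaled scanner values at 0.997 to 0.999. Some RNA was amplified with either of 2 kits; which rat had which is not given in the sources used here.

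Replicate spots of a probe were averaged. Signals were divided by the 75th percentile over those probes of the array that were well above background, then log2 transformed. A probe was kept if some group had it well above background on each of its arrays (22827 of 30367), and kept probes were fitted in 1 limma model (limma 3.58.1, R 4.3.3) over the 6 groups with 10 residual degrees of freedom, with Benjamini-Hochberg adjustment over all tested probes; calls are adjusted p under 0.05. Fold bounds used the lowest signal well above background on each array and made no allowance for the spread between rats. The model was also run on simulated arrays with independent noise and no session or slide shift, so that run does not address such shifts. The number of arrays limits the precision. The members and gene lists were chosen with earlier results of these data known. Named genes were all members, the called pathway genes (up to 5 each way) and the 5 genes most like Adcy1. Alternatives were quantile normalization, normexp correction of the background (offset 50), the percentile over all probes, no filter, probes above background on all arrays (14295), the matrix, the t-test of the methods with its fold limit of 1.2, the compared groups alone, slide blocks, the replicate block, removal of a GC trend, the mean of the Adcy7 probes and each rat left out. Other marker lists (thalamus, striatum, astrocytes, endothelial cells, oligodendrocytes, CA pyramidal neurons and choroid plexus) were computed as well.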

Additional observations from a re-analysis of the deposited data

How the results depend on the processing

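Depth on these arrays is signal over background, and Adcy1, Adcy4, Adcy6 and Adcy7 lay near it. With normexp background correction, the count of members called was 0 in TBI vs Naive, 0 in Sham vs Naive, 1, 0 and 1 in TBI+JM6, TBI+PMI and TBI+E33 relative to TBI, and the pathway genes called were 0, 1, 14, 5 and 8. Quantile normalization left 1, 1 and 2 members called in TBI+JM6, TBI+PMI and TBI+E33 vs TBI, with 14, 10 and 9 pathway genes, and 3 pathway genes in TBI vs Naive. The authors' matrix gave 1, 1 and 2 members and 14, 12 and 9 pathway genes there, 3 pathway genes in TBI vs Naive and 1 in TBI+JM6 vs TBI+E33. The 75th percentile over all probes gave 2, 1 and 1 members and 18, 17 and 17 pathway genes. Without a filter 2 pathway genes were called in TBI vs Naive, and with only probes above background on all arrays 1 member was called in TBI+PMI vs TBI. The unadjusted t-test of the methods called 5 members in TBI vs Naive, 1 in TBI+JM6 vs TBI+PMI and 2 in TBI+PMI vs TBI+E33, and 9 pathway genes in TBI vs Naive, 10 in Sham vs Naive, and 4, 3 and 7 in the drug pairs. It called 1554, 619 and 3417 of all probes in TBI+JM6 vs TBI+PMI, TBI+JM6 vs TBI+E33 and TBI+PMI vs TBI+E33. After Benjamini-Hochberg this t-test called 0 members and 0 pathway genes in TBI vs Naive and in Sham vs Naive, and 14 and 19 pathway genes in TBI+PMI and TBI+E33 vs TBI. The compared groups alone gave 0 members and 0 pathway genes in TBI vs Naive, and 1 and 2 in Sham vs Naive. Slide as a fixed block called 0 members and 0 pathway genes in both, and slide as a random block called 1 member in TBI+PMI vs TBI+E33. Outside the t-test in the drug pairs, no count over all probes stands beside the counts in this section. They are therefore not read as results about the members or the pathway genes. The cause of the changes between settings was not tested.

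Signs that turned with the scaling were as follows, as log2 differences from TBI. Under quantile normalization TBI+JM6 gave -0.11 for Adcy2, -0.33 for Adcy5, -0.18 and -0.90 for Adcy7 probes 1 and 2, and -0.0062 for Adcy8. TBI+PMI gave -0.10 and -1.30 for the Adcy7 probes, and TBI+E33 gave -0.24 for Adcy5 and -0.15 and -1.65 for the Adcy7 probes. The authors' matrix gave -0.10 for Adcy2, -0.32 for Adcy5, and -0.15 and -0.89 for the Adcy7 probes in TBI+JM6, -0.0898 and -1.22 for the Adcy7 probes in TBI+PMI, and -0.22 for Adcy5 and -0.24 and -1.39 for the Adcy7 probes in TBI+E33. The percentile over all probes gave -0.25 for Adcy2 and -0.29 for Adcy5 in TBI+JM6, -0.44 for Adcy2 in TBI+PMI, and -0.043 for Adcy2 and -0.20 for Adcy5 in TBI+E33. With normexp, Adcy7 probe 1 gave -0.13 in TBI+PMI.

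With each rat left out, members called ranged from 1 to 2 in TBI vs Naive (1 without Naive replicate 1 or TBI replicate 3), 1 to 2 in Sham vs Naive (1 without Naive replicate 1 or 2 or Sham replicate 2, and without Sham replicate 1, where Adcy8 and Adcy9 were both lost and Adcy7 probe 1 was called higher, at 1.69 with adjusted p = 0.0357), 5 to 7 in TBI+JM6, 2 to 3 in TBI+PMI and 4 to 5 in TBI+E33 vs TBI, and stayed at 0 between drugs. Member probes lower in TBI vs Sham ranged from 5 to 6. Pathway genes called ranged from 1 to 8 in TBI vs Naive (8 without TBI replicate 1), 2 to 5 in Sham vs Naive (2 without Sham replicate 2, 3 without Sham replicate 1), and 24 to 33, 17 to 27 and 20 to 32 in TBI+JM6, TBI+PMI and TBI+E33 vs TBI (17 without TBI replicate 3). The replicate block gave 3 pathway genes in TBI vs Naive and 2, 2, 7, 2 and 5 members called in TBI vs Naive, Sham vs Naive, TBI+JM6, TBI+PMI and TBI+E33 vs TBI. Same-numbered arrays share only a number: the correlation of their deviations ran from -0.19 to 0.18, with 3 of 36 pairs over 0.1, and 8 of 16 arrays correlated best with an array of their own number.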
